A study of Mus musculus with 2 samples.

Results

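The imprinted genes described here are 41 genes of which, in mice, mainly the copy from a named parent is active in at least some tissues. They were chosen by symbol, and all 41 were found among the 43346 genes quantified in stomachs of mouse embryos. RNA-seq libraries from total RNA were made from 2 stomachs of strain B6NCrl at 14.5 days of gestation (E14.5). Replicate 1 was collected on day 15 of the month and replicate 2 on day 17, each from a single pup per the labels. They form 1 group with no transgene, treatment or second condition, so levels were described and no difference between conditions could be tested. The group is a whole organ from an inbred strain: no cell type was separated and no allele was counted, so the parent of origin of each RNA was not measured. The parent named for each gene below is background knowledge from mice.

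Imprinted genes lie in clusters, called domains here, in which a DNA methylation mark set in the egg or in the sperm decides which copy is transcribed. Many domains pair protein-coding genes active from one parent with a long noncoding RNA active from the other. As a group these genes are known for acting on fetal and placental growth, with many paternally expressed members promoting growth and several maternally expressed members restraining it. Many are known to be abundant in the embryo and to decline after birth.

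The members lie on 9 chromosomes in 17 domains, 7 of which contribute a single gene. Chromosome 7 holds 16 members, chromosome 6 holds 9 and chromosome 12 holds 5. By the annotation 34 are protein-coding and 7 are noncoding RNAs. By their active copy 22 are paternal and 18 maternal, and Gnas has transcripts of either origin.

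The libraries held 25072242 expected counts (replicate 1) and 25599910 (replicate 2). The stomach label was checked against 8 stomach markers, which were all detected, with summed levels of 2480 and 2218 TPM in replicates 1 and 2, led by Cym, Barx1 and Tff1. TPM values are read numbers divided by transcript length and scaled to the same total in each library, a total that includes the added spike-in RNAs. The spike-ins took 12.1% of TPM in replicate 1 and 14.2% in replicate 2. Both samples carry the sex label "pooled male and female", but the Y-linked gene Ddx3y had 2550 counts in replicate 1 against 0 in replicate 2. The X-linked gene Xist had 13.5 counts in replicate 1 against 32038 in replicate 2. A list of 10 pancreas genes also set the libraries apart, with a summed level of 712 TPM in replicate 1 and 44.7 TPM in replicate 2. All 8 pancreas genes that averaged 100 or more counts were higher in replicate 1 by over 25%, as 4.15% of all genes compared were, and 0 of the 10 were at 0 counts there, against 3 in replicate 2. The defining trophoblast genes were near 0, with none of 6 detected and summed levels of 1.41 and 0.94 TPM in replicates 1 and 2. The part of the pancreas genes or of the sex difference in the values below was not tested. In a bulk sample, fewer cells of a type and less RNA per cell cannot be told apart.

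At a level of 1 TPM or more in both libraries, 39 of the 41 imprinted genes were detected, against 34.9% of all genes. By type, 32 of 34 protein-coding members were detected, where the share over all protein-coding genes was 61.8%, and 7 of 7 noncoding members were. The share over all noncoding genes was not computed, so the noncoding count marks no trait of the members. The members not detected were Calcr, the calcitonin receptor, with 0.20 and 0.16 TPM in replicates 1 and 2 from 12 and 10 counts, and Usp29, which encodes a ubiquitin-specific protease, with 0.14 and 0.13 TPM from 6 counts in each library. The detected members had a median of 32.6 TPM in replicate 1 and 30.0 TPM in replicate 2, beside medians of 16 and 15.3 TPM in replicates 1 and 2 over all detected genes. Together the 41 genes held 0.911% of the TPM of all genes in replicate 1 and 0.867% in replicate 2.

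Levels were very uneven. The 5 highest members, Gnas, H19, Igf2, Mest and Meg3, held 61.6% of the members' TPM in replicate 1 and 60.9% in replicate 2, and the 11 highest held 88.7% in replicate 1 and 88.5% in replicate 2. At 100 TPM or more in both libraries stood 14 members, among 1399 genes in all, while 14 members lay between 1 and 10 TPM. Of 40 neighbouring pairs in the order of levels, 16 had overlapping ranges over the libraries and so no resolved order. Among the abundant genes these were Igf2 with Mest, Nnat with Grb10, and Ndn with Peg3.

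**Figure D1:**
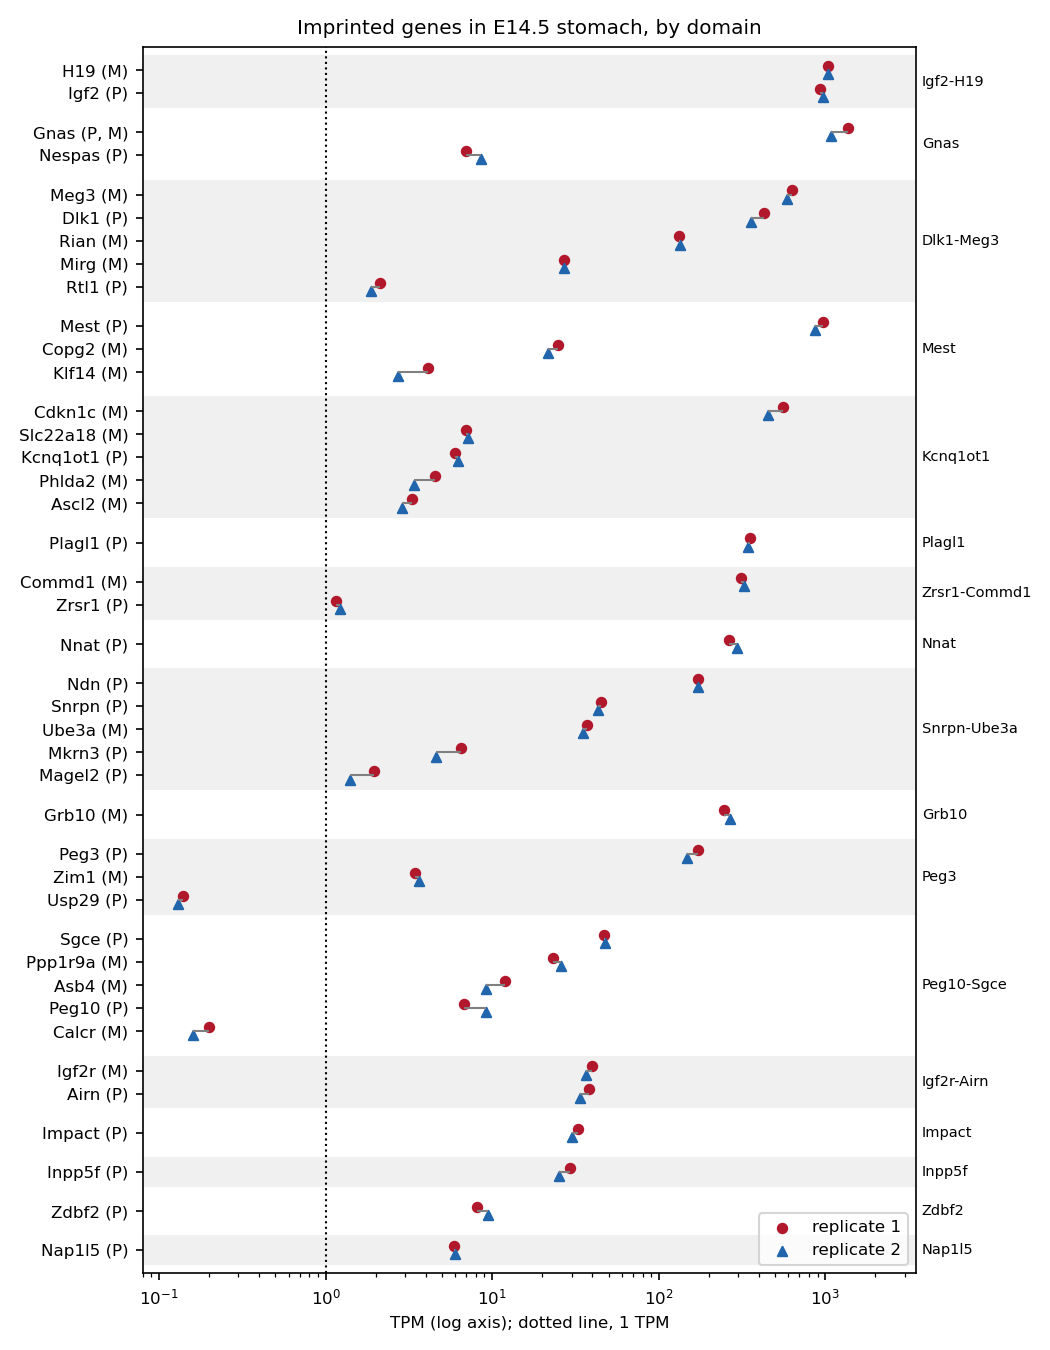
TPM of the 41 imprinted genes on a log axis, grouped by domain, with replicate 1 as circles and replicate 2 as triangles; P and M mark the paternal or maternal copy known to be active. The libraries lie close together for nearly every gene, while members of the same domain spread over up to 1238-fold, and 39 genes lie right of the dotted line at 1 TPM in both libraries.

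The Igf2-H19 domain (chromosome 7, 142575529 to 142666816, mm10) had the highest summed level, with 1967 TPM in replicate 1 and 2003 TPM in replicate 2. Igf2, the paternally expressed insulin-like growth factor of the fetus, had 935 and 971 TPM in replicates 1 and 2. H19, the maternally expressed noncoding RNA that shares enhancers with it, had 1032.3 and 1032.5 TPM in replicates 1 and 2. H19 thus stood at 1.10 and 1.06 times Igf2, a ratio that differed little between the stomachs. By mean TPM H19 ranked 111 and Igf2 118 among all genes. Igf2r, the receptor that clears this growth factor into lysosomes, stood far below it. Igf2 had 23.5 times the TPM of Igf2r in replicate 1 and 26.5 times in replicate 2.

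H19, Igf2 and Mest also carry microRNAs within their spans. Small RNAs were not measured, since RNAs over 200 nt were kept, so no level belongs to the sequences below. They lie within the spans of these abundant genes, and whether each lies in an exon was not examined. Each is written as RNA from 5′ to 3′ with the seed (bases 2 to 8) in capitals (RefSeq, GRCm38.p6).
mmu-miR-675-5p, in H19: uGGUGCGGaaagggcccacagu
mmu-miR-675-3p, in H19: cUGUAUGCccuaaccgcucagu
mmu-miR-483-3p, in Igf2: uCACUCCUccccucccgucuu
mmu-miR-335-5p, in Mest: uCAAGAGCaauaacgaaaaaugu
These hosts had between 864 and 1033 TPM, and the 4 seeds differ from each other.

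Igf2 has several promoters, and its reads were spread over transcript models that start far apart. Shares of models with exons in common are estimates, and promoter use was not measured. By expected counts, the model starting at 142659489 held 37.0% of the gene in replicate 1 and 37.4% in replicate 2, and those starting at 142657466 to 142657496 held 28.32% and 24.97%. The 5′-most model, starting at 142666816, held 10.1% and 10.7% of counts in replicates 1 and 2. A 2-exon processed transcript starting at 142653030, Igf2-208, held 23.5% and 25.9% of counts but, being short, 41.02% and 43.49% of TPM. None of the RefSeq promoter windows of Igf2 lies at that start. No start held most of the gene in either library, and the shares differed by under 5 percentage points between the stomachs. H19 divided between overlapping models too. In replicates 1 and 2, H19-203 had 35.9% and 37.6% of its TPM and H19-205 had 36.3% and 35.8%, so the top model differed between the libraries within a small margin.

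Gnas, which encodes the stimulatory G protein alpha subunit, was the highest single member. It had 1369 TPM in replicate 1 and 1076 TPM in replicate 2 (mean 1222.5 ± 207, SD, n = 2), from 37005 and 30785 counts. The locus (chromosome 2, 174281237 to 174346744) is known for transcripts of different parental origin that share downstream exons. Models from the start of the Gs alpha transcripts, at 174330006 to 174330287, held 94.2% and 94.3% of its TPM in replicates 1 and 2. The Nesp start at 174284320, whose transcripts come from the maternal copy, held 1.21% and 1.02%. The paternally active XLas start at 174297859 held 0.23% and 0.16%, and the paternally active exon 1A start at 174327570 to 174328023 held 3.15% and 3.14%. So the Gs alpha start, which is active on both copies in most tissues, accounted for most of the gene here, and the 3 starts known as imprinted for small shares in both libraries. Nespas, the paternally expressed RNA antisense to Nesp, had 6.99 and 8.63 TPM in replicates 1 and 2. It shares 988 exon bases with Gnas on the opposite strand, and the sources used here do not state whether counting used strand.

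**Figure D2:**
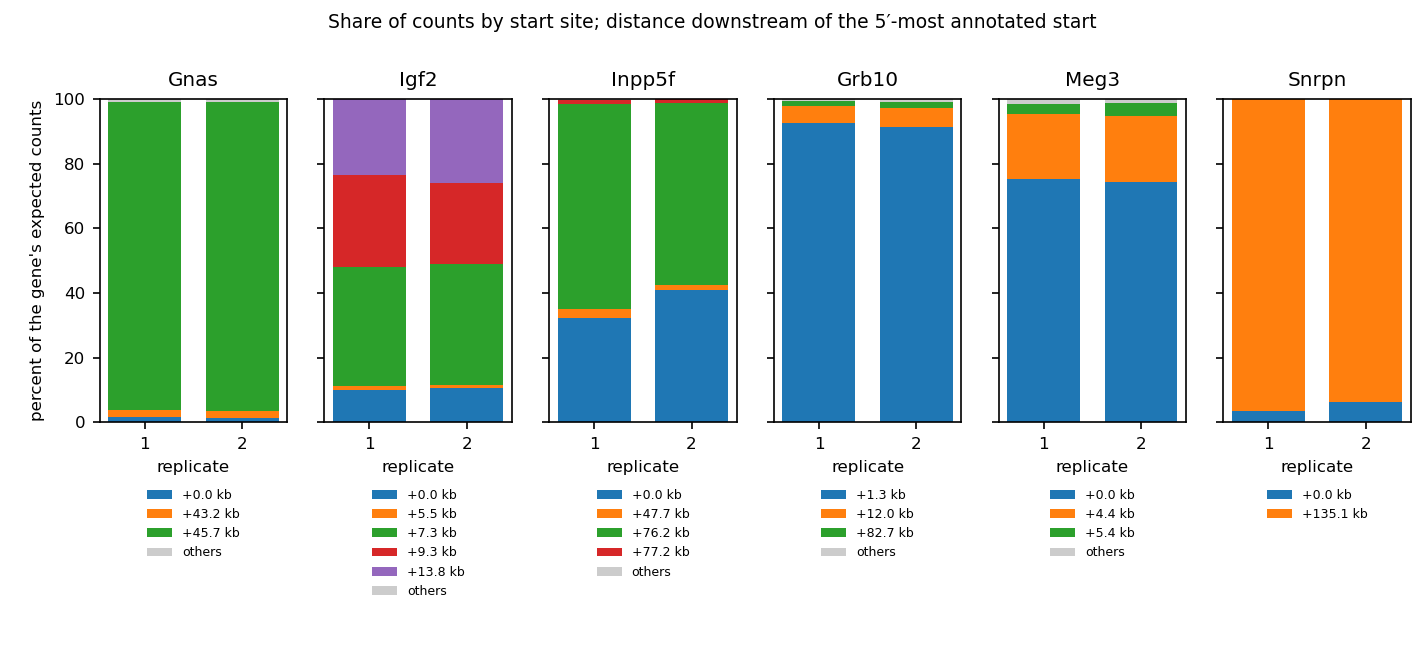
Share of expected counts by annotated start site for 6 imprinted genes, as bars from 0 with replicate 1 left of replicate 2; colours give the distance of a start downstream of the gene's 5′-most annotated start, and grey sums the starts under 1 percent. In these estimated shares a single annotated start dominates Gnas, Grb10, Meg3 and Snrpn in both libraries. Igf2 divides over 4 main annotated starts, and the internal start of Inpp5f holds 63.6% and 56.3%.

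The Dlk1-Meg3 domain (chromosome 12, 109452823 to 109749460) summed to 1219 TPM in replicate 1 and 1110 TPM in replicate 2. Its maternally expressed noncoding RNAs stood in a falling order along the chromosome. In replicates 1 and 2 Meg3 had 630 and 588 TPM, Rian, a host of C/D box small nucleolar RNAs, had 133 and 134 TPM, and Mirg, a host of microRNAs, had 26.8 and 27.1 TPM. In replicates 1 and 2, Meg3 was 4.73 and 4.37 times Rian, and Rian 4.97 and 4.96 times Mirg. Those ranges did not overlap between the 3 genes. On the paternal side Dlk1, a membrane protein with EGF-like repeats that restrains adipocyte differentiation, had 427 and 359 TPM in replicates 1 and 2. Rtl1, derived from a retrotransposon and needed in the placenta, had 2.13 and 1.88 TPM, and Dlk1 was 200 and 191 times higher. Meg3 stood at 1.48 and 1.64 times Dlk1.

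This domain holds 57 microRNA genes in the RefSeq table, of which 14 lie within Mirg, 3 within Rian and 2 within Meg3. Another 6 lie opposite Rtl1, among them miR-127, which on the maternal transcript is complementary to the Rtl1 RNA. The 111 mature sequences carry 102 different seeds, and 9 seeds are shared by a pair each. Below, miR-127-3p is shown for its pairing with Rtl1, and 2 pairs with a shared seed, all between Rian and Mirg, as examples of such pairs.
mmu-miR-127-3p: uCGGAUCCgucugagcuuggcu
mmu-miR-379-5p: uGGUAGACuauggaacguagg
mmu-miR-1193-5p: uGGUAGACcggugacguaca
mmu-miR-376b-5p: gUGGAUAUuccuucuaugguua
mmu-miR-376c-5p: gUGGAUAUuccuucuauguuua
The pairs miR-379-5p with miR-1193-5p and miR-376b-5p with miR-376c-5p have the same capitals. No reads were assigned to these small RNAs here.

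The Mest domain (chromosome 6, 30723547 to 30959078) was carried by Mest, a paternally expressed gene of the embryonic mesoderm with a hydrolase-like protein. Mest had 969 and 864 TPM in replicates 1 and 2 from 38019 and 35951 counts. Its start at 30738050 to 30738055, that of the imprinted transcripts, held 96.6% and 96.4% of its TPM. The upstream starts, at 30723547, 30731968 and 30733454, held no more than 0.36% each in either library. Copg2, a coatomer subunit, had 24.96 and 21.79 TPM in replicates 1 and 2, so Mest was 38.8 and 39.6 times higher. These genes share 912 exon bases on opposite strands, so reads there cannot be assigned with certainty. Klf14, a zinc finger gene of the same domain with maternal expression, had 4.11 and 2.72 TPM.

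In the Kcnq1ot1 domain (chromosome 7, 142966829 to 143503150) Cdkn1c stood alone at a high level. Cdkn1c encodes the cell cycle inhibitor p57 and is maternally expressed. It had 560 and 456 TPM in replicates 1 and 2 from 16977 and 14674 counts. The other coding members, all maternally expressed, were low in both libraries. Slc22a18, a membrane transporter, had 6.97 and 7.21 TPM, Phlda2, which restrains placental growth, had 4.51 and 3.40 TPM, and Ascl2, a transcription factor of trophoblast and intestinal stem cells, had 3.31 and 2.86 TPM. Kcnq1ot1 itself, the paternally expressed RNA that silences the domain in cis, had only 5.99 and 6.27 TPM in replicates 1 and 2 but 8509 and 9465 counts. Its model is a single transcript of 84395 bases, and it ranked 314 among all genes by mean count and 10865 by mean TPM. It shares 121 exon bases with Kcnq1, which lies on the opposite strand and had 159 and 119 counts.

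The Snrpn-Ube3a domain (chromosome 7, 59228750 to 62420139) corresponds to the human Prader-Willi and Angelman region. Ndn, a MAGE family protein, was its highest gene, with 172.8 and 172.3 TPM in replicates 1 and 2. Snrpn, a core protein of the spliceosome, had 45.2 and 43.2 TPM, and 96.8% and 94.0% of that came from the start at 60005111 rather than the upstream start at 60140219. Ube3a, a ubiquitin ligase whose imprinting is known mainly from neurons, had 37.3 and 35.3 TPM in replicates 1 and 2. Ube3a shares 1803 exon bases with the antisense RNA Snhg14, which had 938 and 894 counts. Mkrn3, a ring finger protein, had 6.52 and 4.59 TPM, and Magel2, another MAGE family protein, had 1.96 and 1.41 TPM. Ndn was 88.2 and 122 times Magel2, though both are paternally expressed. Neuron markers were present in both stomachs, with all 5 genes of the list detected and summed levels of 288 and 282 TPM.

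The Peg3 domain (chromosome 7, 6671269 to 6967219) showed the widest spread. Peg3, a zinc finger protein expressed from the paternal copy, had 173 and 147 TPM in replicates 1 and 2 from 22085 and 20276 counts. Zim1, a maternally expressed zinc finger gene, had 3.43 and 3.63 TPM. Usp29, which starts beside Peg3 and runs the other way, was 1238-fold and 1133-fold below it. All 100% of Peg3 came from models starting at 6730419 to 6730431. The RefSeq window of 300 bases around this start (250 before and 50 after it) shares 263 bases with that of Usp29, whose start lies 164 bases away. It is shown because the same stretch faces both an abundant and an undetected gene (chr7:6730370-6730669, minus strand, GRCm38.p6).
Peg3: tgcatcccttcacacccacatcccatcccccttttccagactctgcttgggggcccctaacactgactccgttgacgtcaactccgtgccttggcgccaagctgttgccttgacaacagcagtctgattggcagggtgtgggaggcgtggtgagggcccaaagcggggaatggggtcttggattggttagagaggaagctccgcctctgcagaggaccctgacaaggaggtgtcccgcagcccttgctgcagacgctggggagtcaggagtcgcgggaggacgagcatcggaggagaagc
The window holds 13 CpG dinucleotides. The Usp29 model behind the deposited values starts at 6961160, far downstream of the shared stretch, so its upstream exons are not part of that model.

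The Peg10-Sgce domain (chromosome 6, 3685680 to 5433022) likewise has a pair of paternally expressed genes that start side by side in opposite directions. Sgce, the epsilon subunit of the sarcoglycan complex, had 46.8 and 47.7 TPM in replicates 1 and 2, and Peg10, derived from a retrotransposon and essential for the placenta, had 6.80 and 9.20 TPM. Sgce was 6.88 and 5.18 times higher. The counts of Peg10, 694 and 731, differed less than its TPM, and its effective length in replicate 2 fell by 26.6% relative to replicate 1. Peg10-202 took 89.9% of its TPM in replicate 1 and 48.5% in replicate 2. Ppp1r9a, which encodes the actin-binding protein neurabin, had 23.3 and 25.8 TPM, and Asb4, which encodes an ankyrin repeat protein, had 12.0 and 9.15 TPM.

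In the Igf2r-Airn domain (chromosome 17, 12682406 to 12860136) Igf2r, maternally expressed, had 39.7 and 36.6 TPM in replicates 1 and 2. Airn, the paternal noncoding RNA that silences it in cis, had 38.1 and 33.8 TPM, a near equal level at 0.957 and 0.923 times Igf2r. The ratio rests on length: by counts, Airn had 551 and 535 against 5622 and 5194 for Igf2r. The annotated Airn models are short spliced forms of an RNA known to be mostly unspliced, so the rest of the transcribed locus lies outside them.

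Of the remaining domains, Plagl1, a zinc finger transcription factor that acts on growth, had 356 and 343 TPM in replicates 1 and 2, of which 98.2% and 97.8% came from the start at 13090691 to 13091013. Commd1, a COMM domain protein with a role in copper handling, had 314 and 327 TPM, while Zrsr1, a splicing factor gene within its intron, had 1.15 and 1.22 TPM. Nnat, a small membrane proteolipid, had 266 and 294 TPM. Grb10, an adaptor that dampens insulin and growth factor receptor signals, had 247 and 268 TPM in replicates 1 and 2. Its start at 12037401 held 92.4% and 91.4% of counts. The starts at 12026324 to 12026732 held 5.26% and 5.94%, and the start at 12027971 held 0.43% and 0.45%. By TPM the share at 12037401 was 52.6% and 48.8%. Grb10-207, a model of 430 bases that starts at 12026732, took 43.8% and 46.3% of TPM, being short.

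Inpp5f, a phosphoinositide phosphatase, had 29.6 and 25.2 TPM in replicates 1 and 2. A short transcript that starts inside the gene is its form known as imprinted, in brain. The internal start at 128687546 held 72.8% and 68.2% of its TPM, while the full-length start group at 128611328 to 128611360 held 21.5% and 29.0%. Impact, a regulator of translation, had 32.6 and 30.0 TPM. Zdbf2, which encodes a zinc finger protein, had 8.12 and 9.39 TPM, and Nap1l5, of the nucleosome assembly protein family, had 5.89 and 5.98 TPM. Each of these 4 genes is paternally expressed where it is imprinted.

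Set side by side by active copy, the 22 paternally expressed genes had a median of 31.1 TPM in replicate 1 and 27.6 TPM in replicate 2. The 18 maternally expressed genes had 25.9 TPM in replicate 1 and 26.5 TPM in replicate 2. In replicates 1 and 2, paternally expressed genes held 44.2% and 45.4% of the members' summed TPM, maternally expressed genes 38.7% and 40.1%, and Gnas 17.1% and 14.5%. Both classes ran from under 1 TPM to about the top of the range, up to 971 TPM for the paternal and 1033 TPM for the maternal class. With the 12 maternally expressed genes whose imprinting is known in most tissues, the maternal median was 33.3 and 31.9 TPM in replicates 1 and 2, beside 32.6 and 30.0 TPM for the 21 such paternally expressed genes, and the order of the class medians turned round.

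The difference between the stomachs was given as the log2 ratio of replicate 1 over replicate 2, from expected counts scaled by TMM library sizes, over genes that averaged at least 100 counts. A single library on each side allows no test. Intervals are 95% exact binomial intervals and cover counting error only. Of the 36 members past that filter, 4 differed by over 0.32 on the log2 scale (25% higher or 20% lower), beside 7.42% of the 12761 genes compared. None differed by over 2-fold, a size that 0.298% of all genes passed. The median log2 ratio was -0.007 over members and 0.006 over all genes, and the median size of the ratio without its sign was 0.12 and 0.10. By direction, 17 members were higher in replicate 1 and 19 lower, where 51.9% of all genes were higher.

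The 3 higher in replicate 1 were all of low count, and the background in that direction was 4.15%. Klf14 had 205 counts, against 144 in replicate 2, and was 1.44-fold higher (1.16 to 1.80). Mkrn3 had 269 counts, against 201 in replicate 2, and was 1.36-fold higher (1.13 to 1.64), and its neighbour Magel2 had 151 counts, against 115 in replicate 2, and was 1.33-fold higher (1.04 to 1.71). Ndn, next to them in the same domain, differed by -0.06 on the log2 scale. In the other direction, where the background was 3.28%, Nespas had 166 counts against 218 in replicate 2, or 0.77 times as many after scaling (0.63 to 0.95). Reads of Nespas and Gnas may mix at their shared exon bases, which was not tested. Gnas differed in the opposite direction, being higher in replicate 1.

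The 12 members with the deepest counts, each averaging 5408 or more, give the tightest values. Gnas was 1.22-fold higher in replicate 1 (1.20 to 1.24) at a log2 ratio of 0.29, and Cdkn1c had a log2 ratio of 0.23. Dlk1 had 0.16, Peg3 0.15, Igf2r 0.14, Mest 0.10 and Meg3 0.04. Plagl1 had -0.01, H19 -0.04, Igf2 -0.06, Grb10 -0.09 and Kcnq1ot1 -0.13. The interval excluded a ratio of 1 in 11 of these 12 genes, all but Plagl1, and in 24 of the 36 members compared. This count was not made over all genes, so it marks no trait of the members. At such depth small ratios exclude 1, as for H19 at 0.97 times (0.956 to 0.989). The intervals leave out the difference between animals and between library preparations, which a single library on each side cannot give.

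**Figure D3:**
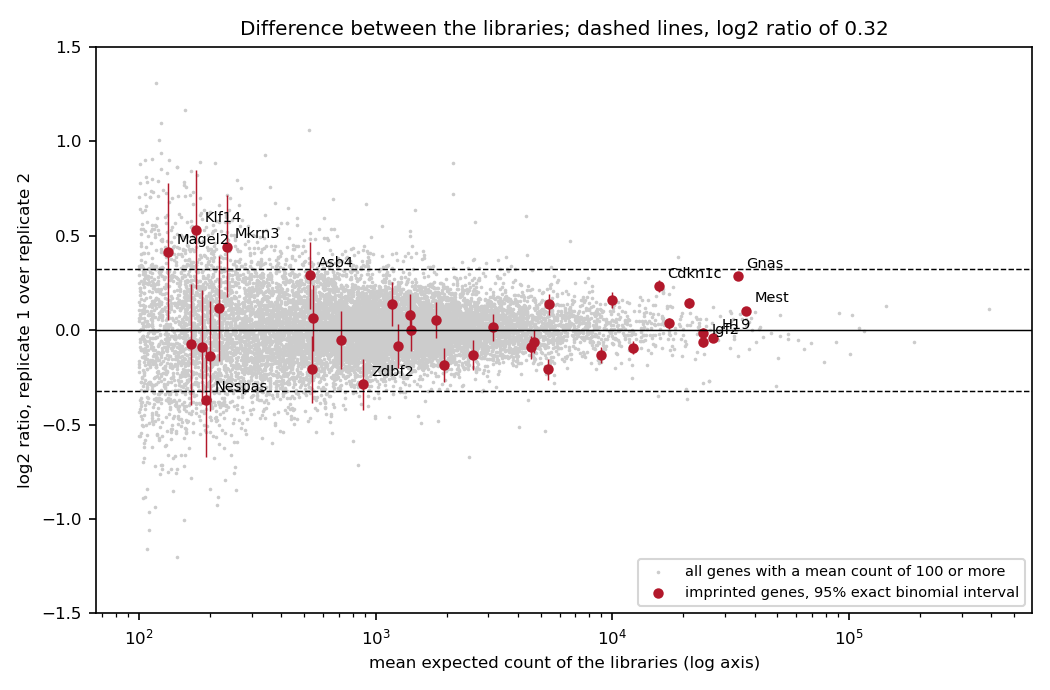
Log2 ratio of replicate 1 over replicate 2 against mean expected count (log axis) for all genes averaging at least 100 counts in grey and the 36 imprinted genes among them in red, with 95% exact binomial intervals. Klf14, Mkrn3 and Magel2 lie above the upper dashed line, at 0.32, and Nespas below the other, all at low counts; 29 grey genes lie outside the axis limits of 1.5.

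Transcript use was alike in the stomachs for most members. Of 29 members with several annotated transcripts, 26 kept their top transcript across the libraries, and the exceptions were H19, Commd1 and the undetected Calcr. The share of the top transcript differed by under 5 percentage points in 24 members and by over 10 in 4, namely Peg10, Sgce, Slc22a18 and Calcr. These counts were not made over all genes with several transcripts, so they mark no trait of the members. Exon bases were shared with another gene by 12 members, of which 10 have a partner on the opposite strand, so reads there cannot be assigned with certainty. Overlaps were not counted over all genes either, so this count too marks no trait of the members.

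Promoter sequences were in the RefSeq table for 33 of the 41 members, in 51 windows of 300 bases. The windows held a median of 15 CpG dinucleotides, beside 7 over all 32851 windows of the table. The median was 14, beside 7, with overlapping windows of a gene counted once. All windows include those of genes not detected here, and the comparison was not repeated over detected genes alone. The richest belonged to Ppp1r9a with 48, Grb10 with 45 and the Gs alpha start of Gnas with 40. The poorest was that of Rian with 0, and the 5′-most Igf2 window held 2. Paternally expressed genes had a median of 12 CpG dinucleotides over 26 windows, and maternally expressed genes 17 over 21 windows. These medians depend on the windows in the table. Some genes give several, such as Snrpn with 7, 4, 3 and 2 CpG dinucleotides. Those without a window were Impact, Nespas, Peg10, Rtl1 and Sgce (paternal) and Cdkn1c, H19 and Klf14 (maternal).

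**Figure D4:**
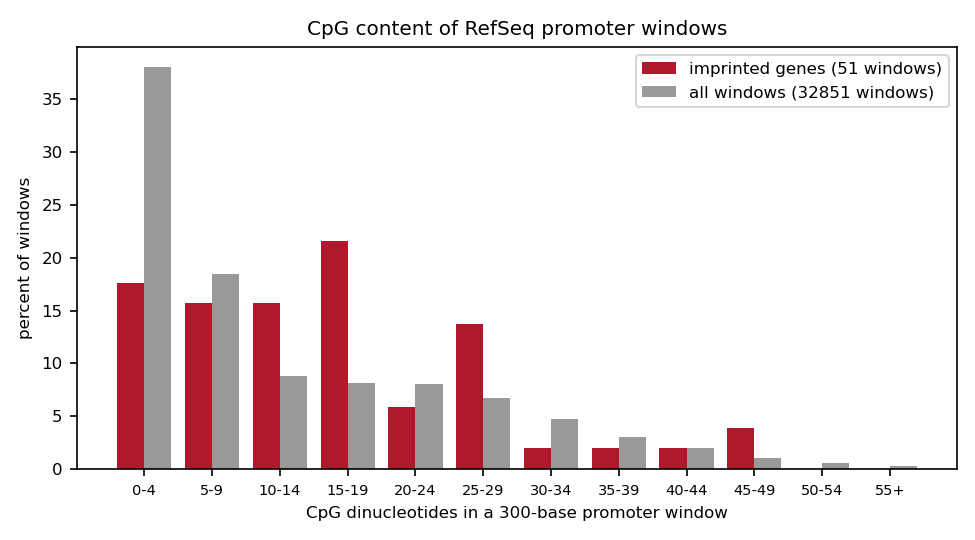
Percent of 300-base promoter windows by number of CpG dinucleotides, for imprinted genes (red) and for all windows of the table (grey), with bars from 0. In the lowest bin, 0 to 4, lie 17.6% of the windows of imprinted genes and 38.0% of all windows, and the fullest bin of the imprinted genes is 15 to 19.

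The letters TGCCGC, the core of the motif that the imprint-protecting zinc finger protein ZFP57 binds when methylated, were searched on both strands, where the other strand reads GCGGCA. Some windows of a gene overlap, such as 2 of Mest that hold the same matches, so overlapping windows of a gene were counted once, a choice made after seeing the data. A match was present in 13 of 49 such windows, or 26.5%, beside 11.5% of all windows counted that way. Among windows with 15 or more CpG dinucleotides it was present in 10 of 24, or 41.7%, beside 24.9% of all. More than a single match was found in 4 windows, those of Calcr, Mest, Nap1l5 and Zdbf2, or 8.16%, beside 1.53%, and among windows with 15 or more CpG dinucleotides in 16.7% beside 4.13%. Both sets of windows are few, no test was made, and all windows again include those of genes not detected here. Windows are shown for the 3 most abundant genes that had a match at the start holding most of their counts, with each match in capitals. They are Mest (chr6:30737800-30738099), Meg3 (chr12:109540746-109541045) and Plagl1 (chr10:13090582-13090881), all on the plus strand of GRCm38.p6.
Mest: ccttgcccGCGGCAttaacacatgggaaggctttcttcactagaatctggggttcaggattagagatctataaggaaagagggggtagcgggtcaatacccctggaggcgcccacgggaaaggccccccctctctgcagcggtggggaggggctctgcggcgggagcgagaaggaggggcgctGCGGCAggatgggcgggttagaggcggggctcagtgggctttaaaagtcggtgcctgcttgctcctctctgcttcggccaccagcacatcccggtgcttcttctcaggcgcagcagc
Meg3: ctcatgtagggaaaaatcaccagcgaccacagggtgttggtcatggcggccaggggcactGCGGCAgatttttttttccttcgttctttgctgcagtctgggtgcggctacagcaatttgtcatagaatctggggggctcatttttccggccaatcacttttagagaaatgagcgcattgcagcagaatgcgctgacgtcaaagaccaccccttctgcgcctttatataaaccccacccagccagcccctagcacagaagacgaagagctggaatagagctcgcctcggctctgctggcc
Plagl1: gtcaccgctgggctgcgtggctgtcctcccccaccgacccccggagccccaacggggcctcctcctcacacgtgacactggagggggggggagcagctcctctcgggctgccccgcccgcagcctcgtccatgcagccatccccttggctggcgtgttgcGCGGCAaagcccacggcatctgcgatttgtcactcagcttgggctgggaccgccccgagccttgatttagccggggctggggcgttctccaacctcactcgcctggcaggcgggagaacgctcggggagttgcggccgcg
Mest has 2 matches, Meg3 1 and Plagl1 1. Methylation and binding were not measured, and a match is only a run of letters.

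Genes known to set or keep imprints were present. Of 20, 17 were detected, beside 34.9% of all genes and 61.8% of protein-coding genes. None of the 17 that averaged at least 100 counts differed by over 0.32 on the log2 scale, beside the 7.42% of all genes. Trim28, the corepressor that ZFP57 recruits, had 302 and 301 TPM in replicates 1 and 2. Ctcf, which insulates the unmethylated Igf2-H19 control region, had 69.6 and 71.1 TPM, and Uhrf1, which brings the maintenance methyltransferase to DNA, had 59.3 and 62.9 TPM. Zfp57 had 62.8 and 57.7 TPM and the de novo methyltransferase Dnmt3a 56.2 and 59.0 TPM. Those not detected were Dnmt3l, Ctcfl and Dppa3, genes of germ cells and early embryos.

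A further list holds 43 genes reported as imprinted in some tissue or stage, many of them in the placenta. Of these, 40 matched the table and 32 were detected, beside 34.9% of all genes and 61.8% of protein-coding genes. The highest were Cd81, a tetraspanin, with 536 and 534 TPM in replicates 1 and 2, and Dcn, a matrix proteoglycan, with 520 and 487 TPM. H13 had 90.5 and 89.5 TPM, Nap1l4 72.9 and 72.7 TPM, and Bcl2l1 62.4 and 58.3 TPM. Of 29 averaging at least 100 counts, 4 were higher in replicate 1 by over that size (Kcnq1, Slc38a4, Ddc and Ampd3) and 2 lower (Xlr3b and Cobl), beside the backgrounds of 4.15% and 3.28%. The widest was Xlr3b, an X-linked gene, at 146 counts against 281 in replicate 2. Ins2, the insulin gene next to Igf2, had 51 counts in replicate 1 against a single count in replicate 2, which is 34.9 times as many with a counting interval of 8.89 to 2085, and the pancreas genes given above were also higher in replicate 1.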

How the data were processed

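Gene and transcript tables of 2 RNA-seq libraries were analysed. Per the deposited notes the authors used genome build mm10 and GENCODE M4; which programs aligned and counted reads, and with what strand setting, is not given in the sources used here. Expected counts deposited by the authors are estimated read numbers, not normalized. Deposited TPM values include spike-ins in their total, and deposited percent values say how much of its gene each transcript makes up. Deposited effective lengths were used as descriptions. The 26248 entries without a gene name took 15.47 counts in replicate 1 and 25 in replicate 2 and stayed out of library sizes. Total counts of 25072242 and 25599910 set the precision, and binomial intervals cover counting error only, since PCR copies are not independent molecules.

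Ratios used expected counts rounded for TMM sizes (edgeR 4.0.16, R 4.3.3; DESeq2 1.42.0 size factors as an alternative), 0.5 added, and a mean count of 100 or more. The procedure was tested on simulated data. Symbols and positions come from GENCODE M21 (same assembly), and promoter and microRNA sequences from RefSeq. Transcripts starting within 500 bases were grouped.

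All members are named by rule, with the most abundant genes of each further list; marker genes the rule also takes are given as sums only or left out. Members and lists were chosen with earlier results of these data known. Start groups, the choice of printed windows and microRNAs, Slc38a4, Ddc, Ampd3, Ins2, Ddx3y, Xist, Dnmt3l, Ctcfl and Dppa3 were chosen after values were seen. Labels assign the samples to separate pups.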

Additional observations from a re-analysis of the deposited data

How the results depend on the processing

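With spike-in counts as library sizes, 15 members were past 0.32 on the log2 scale in place of 4, beside 36.7% of all genes, and the members' median log2 ratio was 0.26, while the median of all genes moved to 0.27, so each ratio is read against the typical gene. The ratio of deposited TPM gave 6 members, losing Nespas and adding Asb4, Gnas and Peg10, beside 10.8% of all genes. Filtering at an average of 10 counts added Phlda2, at a background of 21.0% of genes. DESeq2 size factors and 0.1 or 5 added to the counts kept the same 4 members, and none passed 2-fold under any of these settings. Rescaling TPM to exclude spike-in and mitochondrial entries gave a share of 0.926% of gene TPM for the members and medians of 35.2 TPM for paternally and 31.4 TPM for maternally expressed members, in place of 0.889%, 29.3 and 26.2. Without H19 and Igf2 the share was 0.660%. The maternal median was 32.6 TPM over members imprinted in most tissues. At 0.5, 2 and 5 TPM, 39, 36 and 31 members were detected, and 39 in either library alone. Of 21 level ratios, all within domains but Igf2 over Igf2r, 19 moved by at least their SD over the libraries when counts replaced TPM. Igf2 over Igf2r fell to 4.20 and 4.82 in replicates 1 and 2, from 23.5 and 26.5. Kcnq1ot1 over Cdkn1c rose to 0.501 and 0.645, from 0.0107 and 0.0138. The order turned round in 2 pairs, Ube3a over Snrpn and Ppp1r9a over Sgce. No paired analysis was possible because there is 1 group. Depth limits the 5 members under a mean count of 100, Phlda2, Ascl2, Zrsr1, Calcr and Usp29, and low TPM for long models depends on the annotation.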
